A study of Mus musculus with 13 samples.

Results

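The interferon response genes examined here are 40 genes, listed by symbol, that cells switch on after exposure to interferon or to foreign nucleic acid. Of these members of the list, 33 were measured among the 15437 genes of the array table, and Isg15, Ifit3, Ddx58, Gbp4, Gbp5, Gbp6 and Ifi44 were not analysed here. The study measured RNA of the sciatic nerve in mice of the BKS strain aged 24 weeks, with 7 arrays from db/+ mice (samples 101, 103, 104, 105, 106, 404 and 407) and 6 from db/db mice (samples 110, 111, 112, 409, 410 and 411), to find transcripts altered in a mouse model of the nerve damage of type 2 diabetes. The db mutation disrupts the leptin receptor; db/db mice carry it on both chromosomes and become obese and diabetic, and db/+ mice carry it on one and serve as controls. No treatment is named, and all samples are described with the same strain, tissue and age. The labels do not state that each sample came from a separate animal, so p-values measure the spread between these samples, which may be technical.

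Interferons are secreted proteins that warn neighbouring cells of infection. Type I interferons bind the receptor made of Ifnar1 and Ifnar2, whose kinases Jak1 and Tyk2 activate Stat2, which acts with Irf9 on a DNA motif called the interferon-stimulated response element. Interferon gamma binds a separate receptor and acts through another motif, the gamma-activated site. The induced genes block viral replication, sense viral RNA, attack intracellular pathogens and tune the response itself, and in nerve they can be expressed by Schwann cells, endothelial cells, fibroblasts and immune cells. In bulk tissue, fewer cells of a type and less RNA per cell cannot be told apart.

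Values are log2 expression levels, so a difference of 1 is a doubling. Array medians lay between 8.63 and 8.71. The measured myelin genes had list means of 10.32 to 12.03 on the 13 arrays. Markers of neuronal cell bodies averaged 11.45 to 12.18 on db/+ 101, 103, 104 and 106, and 6.83 to 8.34 on the other 9 arrays. The same tissue label thus does not establish the same cell content. The genotypes were therefore compared over all 13 arrays and again with db/+ 105, 404 and 407 as the only controls. Both comparisons use the same 6 db/db arrays.

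Interferon response genes varied widely from array to array, but their average level was close in the 2 genotypes. The mean of the 33 genes was 9.45 ± 0.59 (SD, n = 7) in db/+ and 9.49 ± 0.64 (SD, n = 6) in db/db. One array of each genotype stood high: db/+ 407 at 10.68, against 8.96 to 9.62 on the other 6 db/+ arrays, and db/db 409 at 10.54, against 8.7 to 9.77 on the other 5 db/db arrays. The lowest mean of all 13 arrays, 8.7, was that of db/db 410. Only the transcription factor genes Irf8 and Irf1 differed between the genotypes over all arrays, Irf8 higher and Irf1 lower in db/db.

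**Figure D1:**
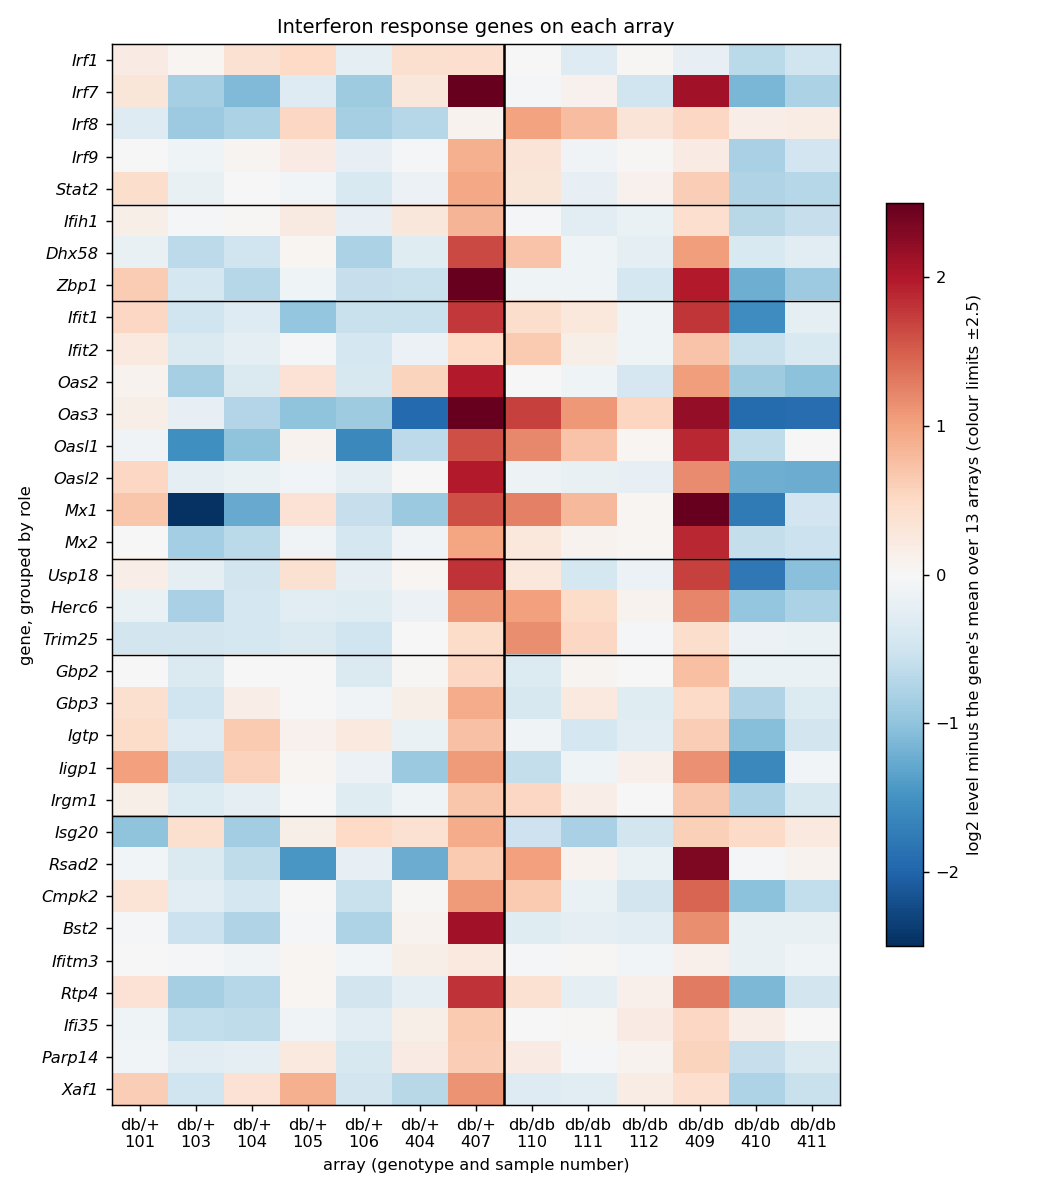
Levels of the 33 interferon response genes on the 13 arrays, as log2 level minus the gene's own mean over the arrays (colour, limited to ±2.5), with genes grouped by role and a vertical line between db/+ and db/db. The columns of db/+ 407 and db/db 409 are red for most genes, and the column of db/db 410 is blue for most.

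Some promoters of these genes hold the motifs through which interferon acts, and 7 are shown. Oas3, Ifit1, Bst2 and Rsad2 had the greatest summed excess on db/+ 407 and db/db 409 among genes with a response element before the start, Gbp2 stands for the GTPases with a smaller excess, and Irf1 and Irf8 are the 2 genes that differed between genotypes. RefSeq promoters (GRCm38.p6), from 250 bases before to 50 bases after the start of transcription, were at hand for 24 of the 33 measured genes. Those of Zbp1, Oas2, Mx1, Mx2, Usp18, Dhx58, Rtp4, Iigp1 and Parp14 were not. The response element was searched as GAAA, any 2 bases and again GAAA, and the gamma-activated site as TTCNNNGAA, on both strands. In the first 4 promoters and that of Gbp2, capitals mark a match to the response element; in those of Irf1 and Irf8 they mark a match to the gamma-activated site. All are written 5′ to 3′ on the strand of the gene.

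Oas3, chr5:120777675-120777774, minus strand, positions −115 to −16 from the start: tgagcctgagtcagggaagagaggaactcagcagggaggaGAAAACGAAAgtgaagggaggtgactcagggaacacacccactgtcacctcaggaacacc
Ifit1, chr19:34640745-34640853, plus strand, −144 to −36: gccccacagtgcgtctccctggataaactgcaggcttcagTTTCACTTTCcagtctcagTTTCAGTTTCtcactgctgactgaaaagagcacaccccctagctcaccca
Bst2, chr8:71537543-71537642, minus strand, −170 to −71: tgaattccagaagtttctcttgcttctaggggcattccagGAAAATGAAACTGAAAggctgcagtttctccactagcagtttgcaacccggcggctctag
Rsad2, chr12:26456513-26456612, minus strand, −160 to −61: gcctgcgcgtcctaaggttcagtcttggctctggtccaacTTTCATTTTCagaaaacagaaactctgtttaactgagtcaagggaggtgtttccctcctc
Gbp2, chr3:142620563-142620662, plus strand, −100 to −1: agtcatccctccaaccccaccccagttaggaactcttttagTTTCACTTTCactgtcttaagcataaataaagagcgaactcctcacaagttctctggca
Irf1, chr11:53769884-53769983, plus strand, −130 to −31: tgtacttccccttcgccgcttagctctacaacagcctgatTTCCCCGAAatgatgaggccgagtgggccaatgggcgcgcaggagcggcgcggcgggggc
Irf8, chr8:120736147-120736253, plus strand, −211 to −105: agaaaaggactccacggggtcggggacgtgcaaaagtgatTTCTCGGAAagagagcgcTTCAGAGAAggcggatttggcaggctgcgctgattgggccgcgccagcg

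A match to the response element was present for 11 of the 24 genes (45.8%), against 3.99% of the 27025 genes with a promoter in the table. The 11 were Ifit1, Oas3, Rsad2, Bst2, Stat2, Ifih1, Ifitm3, Gbp2, Gbp3, Igtp and Irgm1. In Ifih1 and Ifitm3 the only matches to the response element lay after the start. Of the 24 genes, 20 had their highest level on db/+ 407 within db/+ and on db/db 409 within db/db. All 11 were among these 20 (55.0%), but most of the 24 met that condition. The gamma-activated site matched in 8 of the 24 (33.3%), against 9.55% of all genes: Irf1, Irf8, Igtp, Bst2, Ifit2, Isg20, Ifi35 and Ifitm3. Its matches in Ifi35 and Ifitm3 lay after the start. The 2 motifs overlapped in Bst2 and Ifitm3, and matches to the response element overlapped each other in Bst2, Gbp3 and Irgm1. Such matches describe the letters and are not evidence of binding. The genes were listed as switched on by interferon, so their shares above those of all genes are not independent of that choice.

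Over all arrays, 1 of the 33 genes rose in db/db, 1 fell and 31 did not pass the test (limma, Benjamini-Hochberg adjusted p of 0.05 over 15437 genes). Among all genes 13.4% were called higher and 11.7% lower, 25.1% in either direction, so the 2 members called were a smaller share than the background. With each array centred on its median, the 2068 genes higher and 1799 lower became 2546 and 1523. The median difference, db/db minus db/+, was −0.04 for the members and 0.02 for all genes. Differences ran from −0.56 for Oasl2 to 1.03 for Rsad2, with 14 above 0 and 19 below. The groups overlapped for all 33 members, whereas 9.68% of all genes did not overlap (6.17% with db/db higher and 3.51% with db/db lower). An unadjusted p under 0.05 was found for 5 members: Irf1, Irf8, Trim25, Igtp and Rsad2.

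With db/+ 105, 404 and 407 as controls, Irf1 fell, 0 members rose and 32 did not pass the same limma test, beside 12.9% of all genes called (6.12% higher, 6.78% lower). That is 945 genes higher and 1047 lower, which became 1137 and 827 with each array centred on its median. The median difference was −0.36 for the members and −0.05 for all genes, and 26 members lay below 0. The mean of the 33 genes was 9.79 ± 0.77 (SD, n = 3) in these controls, where db/+ 105 and 404 stood at 9.44 and 9.26 and db/+ 407 at 10.68. Without db/+ 407, but with the high db/db 409 kept, the members' median was 0.01. Without both arrays, a choice made after seeing the values, it was −0.17, beside −0.04 for all genes. In this comparison the 3 controls lay above all 6 db/db arrays for Irf1 alone, and 0 members lay wholly higher in db/db. Among all genes 9.99% did not overlap with db/db lower and 8.98% with db/db higher, 19.0% in all.

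**Figure D2:**
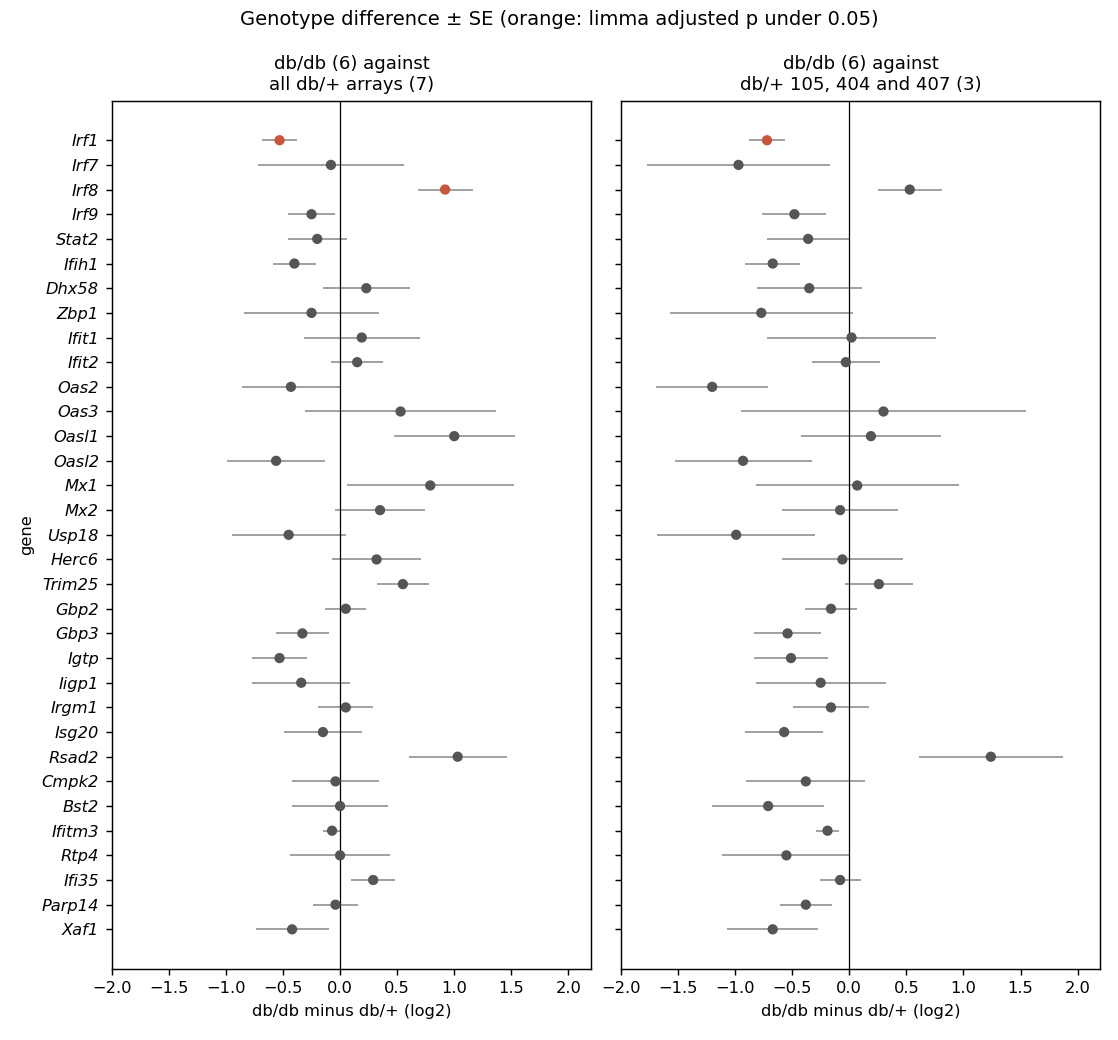
Difference between db/db and db/+ for each of the 33 genes on the log2 scale, with its standard error as a horizontal bar, against all 7 db/+ arrays on the left and against db/+ 105, 404 and 407 on the right. Orange points passed limma's adjusted p of 0.05: Irf8 and Irf1 on the left and Irf1 on the right.

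Of the 5 transcription factors, Irf8 and Irf1 differed by genotype, and Irf7 and Stat2 were highest on the 2 high arrays. Irf8, which directs the development of macrophages and dendritic cells and is induced by interferon gamma, had a lowest, median and highest level of 8.14, 8.33 and 9.56 in db/+ and 9.22, 9.46 and 10.06 in db/db. The db/+ arrays 105 and 407, at 9.56 and 9.14, were the highest controls, and db/+ 105 was inside the db/db range. Irf8 rose by 0.92 ± 0.24 (SE) on the log2 scale (limma, Benjamini-Hochberg adjusted p = 0.0154). Against db/+ 105, 404 and 407 the difference was 0.53 ± 0.28 (SE), which did not pass (limma adjusted p = 0.248).

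By sample number (101 to 112 or 404 to 411), the difference of Irf8 was 1.16 in arrays 101 to 112 (limma adjusted p = 0.0498) and 0.60 in arrays 404 to 411 (limma adjusted p = 0.225), and with this number series as a block it was 0.95 (limma adjusted p = 0.0169). The block left Irf8 and Irf1 as the members called, beside 27.4% of all genes. The db/+ arrays rich in neuronal markers (101, 103, 104 and 106) all belong to arrays 101 to 112. Number series and neuronal content therefore cannot be told apart in differences split by series. The mean of the macrophage list was 10.73 to 11.73 on the db/+ arrays and 10.91 to 11.59 on the db/db arrays, and 3 of its 10 genes rose and 0 fell over all arrays, beside 13.4% and 11.7% of all genes. Against db/+ 105, 404 and 407, 0 of the 10 passed (limma; 2 at an unadjusted p under 0.05). The part of macrophage content in the level of Irf8 was not tested.

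Irf1, an early factor induced above all by interferon gamma, stood at 11.10, 10.93, 11.27, 11.39, 10.64, 11.28 and 11.30 on db/+ 101, 103, 104, 105, 106, 404 and 407. Its levels on db/db 110, 111, 112, 409, 410 and 411 were 10.87, 10.56, 10.92, 10.69, 10.21 and 10.38. In Irf1 the 3 lowest values belonged to db/db 410, 411 and 111, and db/+ 106 was the one control inside the db/db range. Irf1 fell by 0.53 ± 0.15 (SE) on the log2 scale over all arrays and fell by 0.72 ± 0.16 (SE) against db/+ 105, 404 and 407 (limma adjusted p = 0.0218 and 0.0208).

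In arrays 404 to 411 Irf1 fell by 0.87 (limma adjusted p = 0.0438), and with number series as a block its difference was −0.51 (limma adjusted p = 0.0289). In arrays 101 to 112 the difference was −0.28 (limma adjusted p = 0.314). The call over all arrays was lost without db/db 411 (−0.48, limma adjusted p = 0.0509). Against the 3 controls it was lost without db/+ 105, 404 or 407, at −0.69, −0.74 and −0.73 (limma adjusted p = 0.0638, 0.0613 and 0.0627).

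Irf7, the factor that amplifies type I interferon production, showed the opposite arrangement. It was 12.08 on db/+ 407, 9.58 on db/+ 101 and 8.18 to 9.56 on the other 5 db/+ arrays. It was 11.38 on db/db 409 and 8.14 to 9.39 on the other 5 db/db arrays. The excess of the high array over the mean of its own group's other arrays was 3.23 in db/+ and 2.58 in db/db, while the genotype difference was −0.08 ± 0.64 (SE) (limma adjusted p = 0.944).

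Stat2 and Irf9, partners in the factor that binds the response element, moved less. Stat2 was 8.41 on db/+ 407 and 8.05 on db/db 409, against 7.05 to 7.88 and 6.68 to 7.73 on the other arrays of each genotype. Irf9 was 10.43 on db/+ 407 and 9.33 to 9.74 on the other db/+ arrays, but in db/db its highest level was 9.87 on array 110, with 9.75 on array 409. Their genotype differences were −0.20 ± 0.26 (SE) for Stat2 and −0.25 ± 0.21 (SE) for Irf9, and neither passed (limma adjusted p = 0.607 and 0.398).

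**Figure D3:**
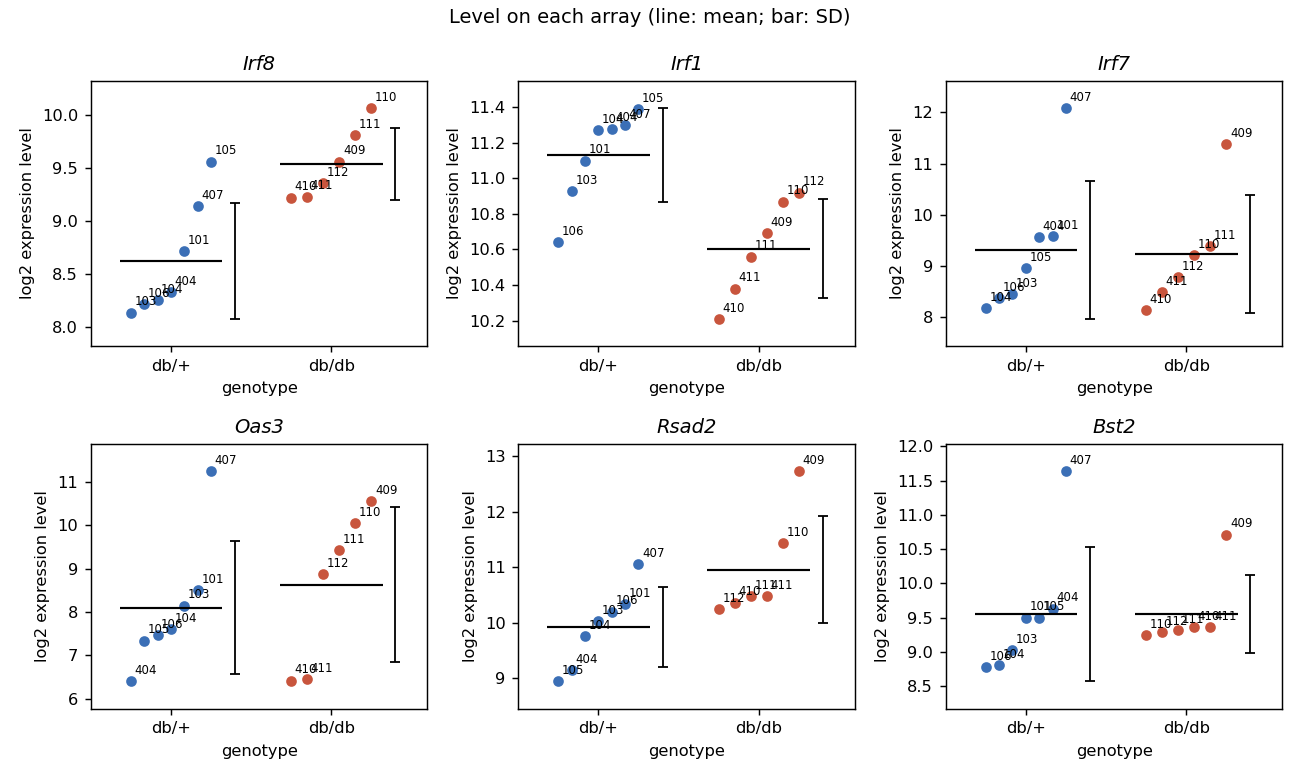
Log2 level of Irf8, Irf1, Irf7, Oas3, Rsad2 and Bst2 on each array, by genotype, with sample numbers beside the points, a line at the mean and a bar of 1 SD (7 db/+ and 6 db/db arrays). Irf8 and Irf1 are shifted between genotypes, whereas Irf7, Oas3 and Bst2 each have db/+ 407 far above the other db/+ arrays.

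The IFIT, OAS and Mx genes encode proteins that bind viral RNA, start its degradation or trap viral particles, and they had the widest spread of the role groups. Their median range over the 13 arrays was 3.28 on the log2 scale, against 2.18 for all 33 members and 1.06 for all genes. All 8 measured genes were highest on db/+ 407 within db/+ and on db/db 409 within db/db. None of the 8 passed the genotype test in either comparison (limma), and their differences ran from −0.56 to 1.0 over all arrays.

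Oas3, an enzyme that makes the 2-5A signal activating the ribonuclease RNase L, spanned 4.85 over the arrays. It was 11.25 on db/+ 407, 8.50 on db/+ 101 and 6.4 on db/+ 404, the lowest of all. In db/db it was 10.55 on array 409, 10.05, 9.43 and 8.88 on arrays 110, 111 and 112, and 6.42 and 6.45 on arrays 410 and 411. Its genotype difference was 0.53 ± 0.84 (SE) (limma adjusted p = 0.681), and it was 1.64 in arrays 101 to 112 and −1.02 in arrays 404 to 411 (limma adjusted p = 0.0185 and 0.765).

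Mx1, a GTPase active against influenza viruses whose gene is defective in many laboratory strains, spanned 5.14. It was 11.59 on db/db 409 and 10.19 on db/db 110, and 7.16 on db/db 410. The db/+ arrays ran from 6.46 on array 103 to 10.55 on array 407, so the genotypes overlapped between 7.16 and 10.55 (0.79 ± 0.73 (SE), limma adjusted p = 0.458). Mx2 was 9.05 on db/db 409 and 8.15 on db/+ 407, and at most 7.42 on any other array.

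Ifit1, which binds viral RNA lacking the host's cap methylation, was 12.04 on db/+ 407 and 12.05 on db/db 409. The other db/+ arrays lay between 9.30 and 10.79 and the other db/db arrays between 8.71 and 10.70. The group means of Ifit1 were 10.18 ± 0.94 (SD, n = 7) in db/+ and 10.37 ± 1.08 (SD, n = 6) in db/db (0.19 ± 0.51 (SE), limma adjusted p = 0.819). Ifit2 ran from 10.17 to 11.11 in db/+ and from 10.05 to 11.32 in db/db.

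The OAS-like genes Oasl1 and Oasl2 differed from each other in direction without passing the test. Oasl1, which restrains Irf7 translation, stood 1.0 ± 0.53 (SE) above db/+ (limma adjusted p = 0.184), and Oasl2 −0.56 ± 0.43 (SE) (limma adjusted p = 0.366). Without db/+ 407, Oasl1 rose by 1.34 (limma adjusted p = 0.0347). Without both db/+ 407 and db/db 409, Oasl1 differed by 1.07, which did not pass (limma adjusted p = 0.0673). Oas2 was 10.48 on db/+ 407 and 9.56 on db/db 409, and its difference was −0.43 over all arrays and −1.20 ± 0.49 (SE) against db/+ 105, 404 and 407 (limma adjusted p = 0.497 and 0.143).

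Among the RNA sensors, Ifih1 recognises long double-stranded RNA, Dhx58 assists it, and Zbp1 detects Z-form nucleic acid and can start cell death. Zbp1 was 11.50 on db/+ 407 and 8.20 to 9.55 on the other db/+ arrays, and 10.91 on db/db 409 and 7.70 to 8.81 on the other db/db arrays. Dhx58 was 8.58 on db/+ 407, against 6.12 to 6.97 on the other db/+ arrays, and 7.96 on db/db 409, against 6.54 to 7.63. Ifih1 was less variable, at 10.22 to 11.28 in db/+ and 9.74 to 10.84 in db/db. Its difference was −0.40 ± 0.19 (SE) over all arrays and −0.67 ± 0.24 (SE) against db/+ 105, 404 and 407 (limma adjusted p = 0.144 and 0.105), and in the latter comparison it fell by 0.79 without db/db 409 (limma adjusted p = 0.0448). Without both db/+ 407 and db/db 409, Ifih1 differed there by −0.59, which did not pass (limma adjusted p = 0.138).

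The ISG15 system attaches the ubiquitin-like protein Isg15 to other proteins. Usp18 removes Isg15 and damps the type I receptor, Herc6 is the mouse ligase, and Trim25 is a ubiquitin ligase that activates an RNA sensor. Usp18 was 11.61 on db/+ 407 and 11.53 on db/db 409, with 9.35 to 10.19 on the other db/+ arrays and 8.02 to 10.07 on the other db/db arrays. Herc6 was 7.77 and 7.89 on the same 2 arrays, and 7.70, 7.14 and 6.77 on db/db 110, 111 and 112.

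Trim25 did not have its highest db/db level on array 409. It was 10.22, 9.58, 9.04, 9.50, 8.91 and 8.90 on db/db 110, 111, 112, 409, 410 and 411. In db/+ it was 8.56 to 9.06 apart from 9.52 on array 407, and the difference of 0.55 ± 0.23 (SE) did not pass (limma adjusted p = 0.0918). Trim25 rose by 0.67 without db/+ 407 and by 0.99 in arrays 101 to 112 (limma adjusted p = 0.0314 and 0.0255). Without both db/+ 407 and db/db 409 it differed by 0.64, which did not pass (limma adjusted p = 0.0629). In arrays 404 to 411 the difference of Trim25 was −0.18 (limma adjusted p = 0.683), and the interaction of genotype with number series was −1.17 (unadjusted p = 0.00913 by limma), which did not pass after adjustment.

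The guanylate-binding proteins and immunity-related GTPases, mainly targets of interferon gamma, attack the compartments in which pathogens live. All 5 measured genes (Gbp2, Gbp3, Igtp, Iigp1 and Irgm1) were highest on db/+ 407 and db/db 409 within their genotype. Their median excess was smaller than that of the IFIT, OAS and Mx genes. It was 0.83 against 2.12 on db/+ 407, and 0.88 against 1.91 on db/db 409. The excess of db/+ 407 over the other db/+ arrays was 0.63 for Gbp2, 0.90 for Gbp3, 0.56 for Igtp, 1.05 for Iigp1 and 0.83 for Irgm1. That of db/db 409 over the other db/db arrays was 0.88, 0.79, 1.08, 1.59 and 0.77. None passed the genotype test in either comparison (limma). Igtp was 9.90 to 10.95 in db/+ and 9.17 to 10.84 in db/db (−0.53 ± 0.24 (SE), limma adjusted p = 0.129). It fell by 0.71 without db/db 409 and by 0.63 without both db/+ 407 and db/db 409 (limma adjusted p = 0.0355 and 0.0479).

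The 9 other effectors were each highest on db/+ 407 and on db/db 409 within their genotype, and none passed the genotype test (limma). Rsad2, or viperin, which makes a chain-terminating nucleotide, had the greatest difference of the 33 members. On db/+ 101, 103, 104, 105, 106, 404 and 407 it was 10.33, 10.03, 9.76, 8.94, 10.20, 9.15 and 11.05. On db/db 110, 111, 112, 409, 410 and 411 it was 11.43, 10.48, 10.24, 12.73, 10.36 and 10.48. All db/db arrays were above 5 of the 7 db/+ arrays, and db/+ 101 and 407 reached into the db/db range. The difference was 1.03 ± 0.43 (SE) over all arrays and 1.24 ± 0.63 (SE) against db/+ 105, 404 and 407 (limma adjusted p = 0.0969 and 0.235). Rsad2 rose by 1.22 without db/+ 407 (limma adjusted p = 0.046), which left db/db 409, its highest array, in place. Over all arrays without both db/+ 407 and db/db 409, Rsad2 differed by 0.86, which did not pass (limma adjusted p = 0.0554). Its neighbour in function Cmpk2, a nucleotide kinase that feeds viperin, differed by −0.04 ± 0.38 (SE).

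Bst2, or tetherin, which holds budding viruses on the cell surface, was 11.64 on db/+ 407 and 8.77 to 9.63 on the other 6 db/+ arrays. In db/db it was 10.71 on array 409 and 9.24 to 9.36 on the other 5, whose SD was 0.05. The genotype means were 9.55 ± 0.99 (SD, n = 7) and 9.55 ± 0.57 (SD, n = 6). Rtp4, a transmembrane protein that restrains antiviral signalling, likewise had means of 8.95 ± 0.90 and 8.95 ± 0.82.

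Ifitm3, which blocks virus entry in endosomes, had a range of 0.43 over the arrays, the smallest of the members, with levels of 13.43 to 13.86. Its mean was above that of 99.8% of genes, and whether the signal was near its ceiling was not tested. The exonuclease gene Isg20 had a different order from the rest: it was lowest on db/+ 101 (9.32) and on db/+ 104 (9.47), and 10.58 to 10.92 on db/db 409, 410 and 411 against 9.52 to 9.87 on db/db 110, 111 and 112. Parp14 ran from 10.18 to 11.38, Ifi35 from 10.13 to 11.43 and Xaf1 from 7.42 to 9.32. The difference of Xaf1 was −0.42 ± 0.32 (SE) (limma adjusted p = 0.353).

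Counted over the list, db/+ 407 had the highest db/+ level for 31 of the 33 members, against 23.2% of all genes. Irf1 and Irf8, which were highest on db/+ 105, were the exceptions. Array db/db 409 had the highest db/db level for 29 of 33, against 12.8% of all genes, the exceptions being Irf8, Trim25 and Irf9, highest on db/db 110, and Irf1, highest on db/db 112. Both held for 29 members, against 5.38% of all genes. For 24 members these were the top 2 of all 13 arrays, which held for 2.46% of all genes. Array db/+ 407 stood more than 1 above the mean of the other db/+ arrays for 20 members (4.81% of all genes), and db/db 409 above the other db/db arrays for 18 (1.13%). Both arrays stood more than 1 above the mean of their genotype's other arrays for 17 members, and for 0.622% of all genes. A gap to the nearest array large enough for Dixon's test to set an array apart was found for 9 members in db/+, each time db/+ 407, and for 4 in db/db, each time db/db 409, against 5.52% and 5.47% of all genes. The 17 above were 51.5% of the measured members and 17.7% of the 96 genes that met that limit.

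**Figure D4:**
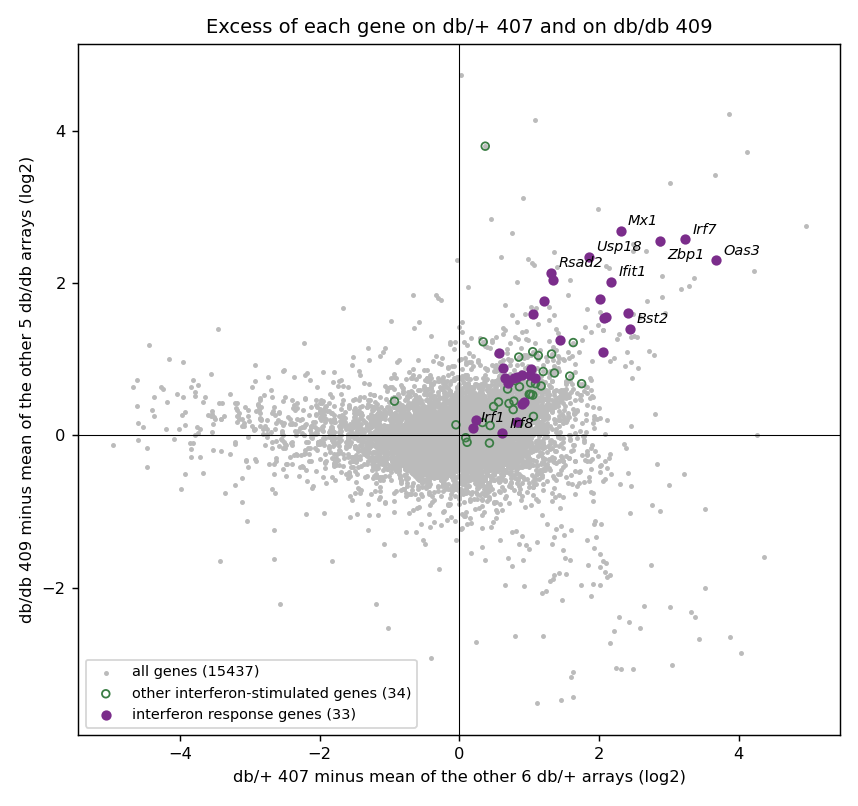
Every gene's log2 level on db/+ 407 minus the mean of the other 6 db/+ arrays (horizontal axis) and on db/db 409 minus the mean of the other 5 db/db arrays (vertical axis); 33 interferon response genes are filled purple, 34 other interferon-stimulated genes are green circles and all 15437 genes are grey. All purple points lie above 0 on both axes, with Oas3, Irf7, Zbp1 and Mx1 farthest out and Irf1 and Irf8 near the horizontal axis.

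The remaining db/db arrays also differed among themselves. Levels on db/db 110, 111 and 112 were all above those on db/db 410 and 411 for 26 of the 33 members, against 19.0% of all genes. Array db/db 410 had the lowest level of all 13 for 19 members, against 5.39%. The members' median SD within genotype was 0.73, against 0.28 for all genes. An interaction of genotype with number series passed for 0 members and 0 genes by limma, with an unadjusted p under 0.05 for 2 members and 15.3% of all genes. The members' median genotype difference was 0.21 in arrays 101 to 112, which hold neither high array, and −0.58 in arrays 404 to 411, which hold both. Arrays 101 to 112 also hold the db/+ arrays rich in neuronal markers, so number series and neuronal content cannot be told apart. Members called numbered 4 of 33 in arrays 101 to 112 (Irf8, Oas3, Herc6 and Trim25, all higher), beside 18.5% of all genes, and 1 (Irf1, lower) in arrays 404 to 411, beside 9.1%.

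Leaving out db/+ 407 and db/db 409 together, a choice made after seeing the values, gave 3 members called over all arrays, Irf8 higher and Irf1 and Igtp lower, beside 23.6% of all genes (limma). The members' median was then −0.05. Against db/+ 105 and 404, the same omission left 1 member called, beside 4.29% of all genes: Rsad2 was higher (1.55, limma adjusted p = 0.0408) and Irf1 did not pass (−0.75, limma adjusted p = 0.0987).

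Upstream genes of the pathway were highest on the 2 high arrays less often than the members. Of 25 listed ligands, receptors and transducers, 17 were measured; 4 rose, 0 fell and 13 did not pass over all arrays, and 1 rose against db/+ 105, 404 and 407 (limma). Among all genes 13.4% rose and 11.7% fell over all arrays, and 6.12% rose with the 3 controls. The receptor subunit genes Ifnar2, Ifngr1 and Ifngr2 rose by 0.51, 0.45 and 0.58 (limma adjusted p = 0.0225, 0.00815 and 0.00733), and Irf5, a factor of myeloid cells, by 0.84 (limma adjusted p = 0.0434). Ifngr2 also rose by 0.55 against db/+ 105, 404 and 407 (limma adjusted p = 0.0404). For 2 of the 17 both arrays were the highest of their genotype, beside 5.38% of all genes. Array db/+ 407 was the highest of db/+ for 8 of the 17 and db/db 409 the highest of db/db for 5, beside 23.2% and 12.8% of all genes.

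The interferon genes themselves were near the low end of the scale. Ifnb1 was 4.09 to 4.54 on 6 db/+ arrays, 5.06 on db/+ 407 and 4.25 to 4.53 in db/db, where array 409 had 4.53. Ifng was 4.19 to 5.09 and Ifna5 5.26 to 6.05 over all arrays, and neither was highest of db/+ on array 407. The 5.09 of Ifng was its level on db/db 409. The table has no detection calls, so these levels were not separated from background.

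Of 13 listed genes of nucleic acid sensing, 12 were measured, of which 4 rose, 0 fell and 8 did not pass over all arrays, and 0 passed against db/+ 105, 404 and 407 (limma; 0 at an unadjusted p under 0.05), beside 25.1% and 12.9% of all genes called. The risers were Tlr8 by 1.34, Tlr7 by 0.84, Mavs by 0.53 and Aim2 by 0.42. Array db/+ 407 was the highest of db/+ for 7 of the 12 and db/db 409 the highest of db/db for 2, beside 23.2% and 12.8% of all genes. Of 43 other interferon-stimulated genes, 34 were measured, with 3 higher, 2 lower and 29 not passing over all arrays, beside 25.1% of all genes called. Both db/+ 407 and db/db 409 were the highest of their genotype for 22 of the 34, against 5.38% of all genes. The risers were the chemokine genes Cxcl10 by 1.89 and Cxcl9 by 0.84 and Parp9 by 0.55 (limma adjusted p = 0.0293, 0.0422 and 0.0202). The immunoproteasome genes Psmb8 and Psmb9 fell by 0.61 and 0.59 (limma adjusted p = 0.0225 and 0.0408). Against db/+ 105, 404 and 407, 0 of the 34 rose and Psmb8 fell by 0.86 (limma adjusted p = 0.0288). Psmb9 differed by −0.84 and Cxcl10 by 2.11 there (limma adjusted p = 0.0535 and 0.128), and all 6 db/db arrays were above all db/+ arrays for Cxcl10.

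Cxcl10 separated the 2 high arrays. It was 12.67 on db/db 409 and 8.56 to 9.34 on the other db/db arrays, an excess of 3.80, but 7.93 on db/+ 407 within a db/+ range of 7.01 to 8.48.

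**Figure D5:**
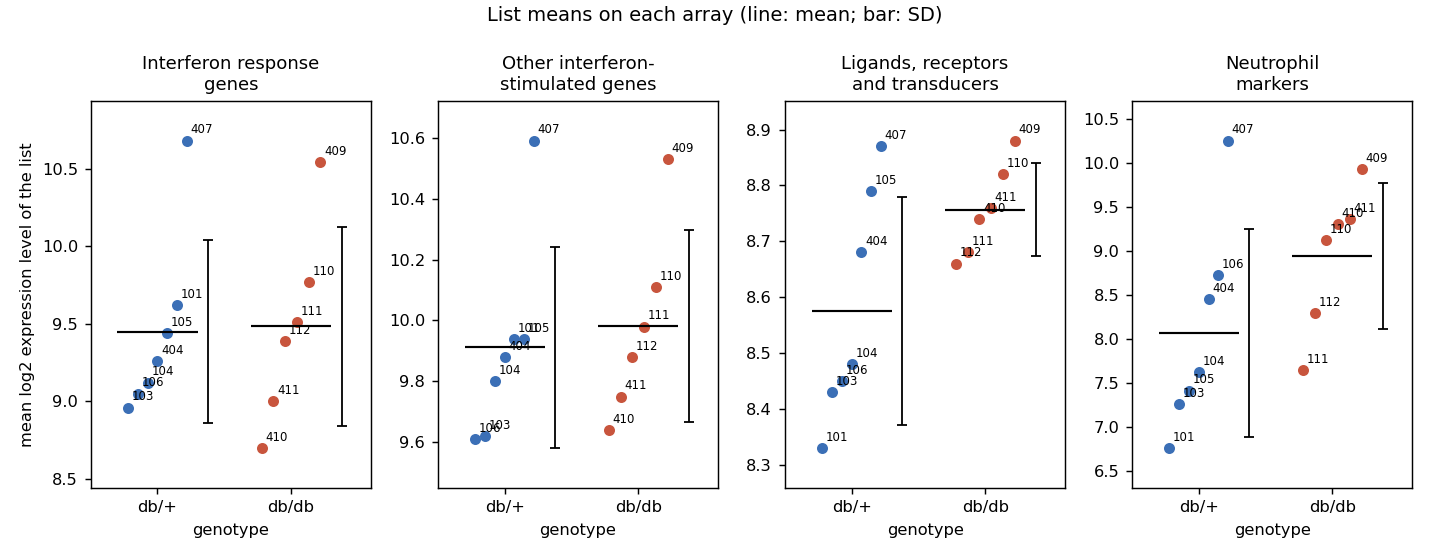
Mean log2 level of 4 gene lists on each array by genotype, with sample numbers, a line at the group mean and a bar of 1 SD (7 db/+ and 6 db/db arrays; vertical scales differ). In the lists of interferon response genes and other interferon-stimulated genes, db/+ 407 and db/db 409 lie above the rest; in the list of ligands, receptors and transducers they stand at 8.87 and 8.88, next to 8.79 on db/+ 105 and 8.82 on db/db 110. The 4th panel holds the neutrophil markers.

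Cell type markers were read on the same arrays. The neutrophil list, of which 4 of 6 genes were measured, had its highest mean in each genotype on these arrays, 10.25 on db/+ 407 against 6.76 to 8.72 on the other db/+ arrays, and 9.93 on db/db 409 against 7.64 to 9.36. Its gene S100a9 was 13.77 on db/+ 407 and 13.46 on db/db 409, and Cxcr2 was 7.57 and 6.83, each the highest of its genotype. The other measured genes of the list, S100a8 and Mpo, were also highest on db/+ 407 within db/+ (12.11 and 7.55) but not on db/db 409 (13.34 and 6.08), where the highest db/db levels were 13.41 on array 410 and 6.24 on array 111. The macrophage list was 11.73 on db/+ 407, against 10.73 to 11.16 on the other db/+ arrays, and 11.57 on db/db 409, against 10.91 to 11.59. Over its genes the excess on db/+ 407 ran from 0.18 to 2.49 (median 0.4). On db/db 409 it ran from −0.05 to 1.6 (median 0.08), and Fcgr1 had the greatest excess on both arrays. The part of neutrophils and macrophages in the high levels was not tested.

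Siglech, the defining gene of plasmacytoid dendritic cells, which make much type I interferon, was 7.04 on db/+ 407 and 6.42 on db/db 409, inside its range of 5.53 to 7.76 on the other arrays. The mean of the plasmacytoid list, which includes the member Bst2, was 7.81 on db/+ 407, inside the db/+ range of 7.42 to 7.97, and 7.62 on db/db 409, above 7.13 to 7.43 on the other db/db arrays. Of its 6 genes, Bst2 and Ccr9 were highest on both arrays. Over the 6 the excess on db/+ 407 ran from −3.21 to 2.44 (median 0.45), so its mean combines opposite directions. On db/db 409 the excess ran from −0.28 to 1.4 (median 0.2). The part of plasmacytoid dendritic cells was not tested. The list of T and NK cell genes was 6.54 and 6.36 on the 2 arrays, inside its range of 5.95 to 7.32. Skeletal muscle genes, a sign of neighbouring tissue, were 11.04 on db/+ 407 but 6.49 on db/db 409. RNA quality was read from the actin controls, as the 3′ level minus the 5′ level. A smaller difference means less loss of the 5′ end. This difference was 0.40 on db/+ 407 and 0.48 on db/db 409, the smallest of each genotype. The other arrays had 0.96 to 1.39 in db/+ and 0.52 to 0.92 in db/db. The Gapdh controls gave 0.55 on db/+ 407, the lowest of db/+, but 0.69 on db/db 409, inside the db/db range of 0.50 to 0.87. The part of RNA quality in these levels was not tested.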

How the data were processed

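RNA (75 ng per sample, amplified and biotin-labelled, per the labels' protocols) was measured on 13 one-colour arrays. The authors deposited log2 expression levels normalized with RMA, per the submitters' processing notes. The RMA version and the array platform were not given in the sources used here. Of 15479 probe sets 42 controls were left out. Probe sets were named from the platform annotation, 14801 by 1 symbol and 636 by none. Arrays have no read depth; their number limits the precision.

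Genotypes were compared with limma 3.58.1 in R 4.3.3 (lmFit, eBayes, two-sided, Benjamini-Hochberg adjustment over 15437 genes, threshold 0.05), over all arrays and with db/+ 105, 404 and 407 as the only controls. The members, controls and gene lists were chosen with earlier results of these data known. Every measured member could be named: those past the threshold with every array, others by the extremes of their role group or by the arrays that stood apart. On simulated data with 100 changed genes per size, 74% at a log2 change of 1 and 98% at 2 were recovered over all arrays (12 of 184 calls false), and 63% and 89% with 3 controls (9 of 161 false). The changed genes were drawn at random from all genes, whose median SD within genotype was 0.28, against 0.73 for the members. These shares therefore do not give the recovery for the members. Alternatives were robust moderation with an intensity trend, repeated quantile normalization, median centring, a filter on the dimmest 25% of genes, array weights, number series as a block or alone, and leaving out arrays.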

Additional observations from a re-analysis of the deposited data

Results flagged for a closer look

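Several members had 1 array far from the others of its genotype, by the gap to the nearest array over the group's whole range (Dixon's 95% limit). Chance flags about 1 in 20 groups. In db/+ the array was 407 each time, with the nearest other db/+ level given second: Irf7 was 12.08 against 9.58, Irf9 10.43 against 9.74 and Dhx58 8.58 against 6.97. Zbp1 was 11.50 against 9.55, Oas3 11.25 against 8.50 and Oasl2 11.86 against 10.40. Usp18 was 11.61 against 10.19, Herc6 7.77 against 6.53 and Bst2 11.64 against 9.63. The mean of the interferon response genes on db/+ 407 was 10.68 against 9.62.

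In db/db the array was 409 each time. Zbp1 was 10.91 against 8.81, Mx2 9.05 against 7.42, Gbp2 11.44 against 10.76 and Bst2 10.71 against 9.36. Zbp1 and Bst2 stood apart in both genotypes.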

How the results depend on the processing

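Over all arrays the 2 members called became 5 with array weights (Irf8, Ifi35, Oasl1 and Trim25 higher, Irf1 lower), 4 in arrays 101 to 112, 1 in arrays 404 to 411, and 1 to 6 when each array was left out in turn, 6 without db/+ 407 and 1 without db/db 411. Genes called, 3867 of 15437, became 6525 with array weights and 1404 in arrays 404 to 411. Against db/+ 105, 404 and 407 the 1 member called became 0 to 2 when each array was left out, 0 without db/+ 105 or 407 and 2 without db/db 409 (Ifih1 added); without db/+ 404 the 1 called was Xaf1 (−1.23, limma adjusted p = 0.0456) in place of Irf1. Genes called there, 1992, became 1164 to 1749 when each array was left out, 1164 without db/+ 407 and 1166 without db/+ 404, and 663 without db/+ 407 and db/db 409, chosen after seeing the data. The interaction with number series, called for 0 genes, gave 0 to 1311 when each array was left out, 1311 without db/+ 105 and 72 without db/+ 404, and 0 members throughout. The cause was not tested. The members' median ran from −0.58 to 0.26 over all arrays and from −0.62 to 0.01 with 3 controls. Of the uncalled members, 23 and 15 changed sign under some setting. No paired analysis was possible because the genotypes share no replicate numbers.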

Other observations

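Beyond the listed genes, 70 named genes in neither list stood more than 1 (log2) above the mean of their genotype's other arrays on both db/+ 407 and db/db 409. Those below were chosen after their values were seen. The Schlafen genes Slfn4 and Slfn1 stood 3.86 and 3.66 above on db/+ 407 and 4.22 and 3.42 above on db/db 409, and Ms4a4c 4.12 and 3.73. Genes of neutrophils and inflammation were also among them. Cd177, a neutrophil surface protein, stood 3.01 and 3.32 above, the interleukin gene Il1b 2.52 and 2.48, and the formyl peptide receptor gene Fpr2 2.67 and 2.42. Chil3, a product of activated myeloid cells, stood 4.96 and 2.75 above. The acute-phase genes Saa2, Saa3 and Lcn2 stood 4.22, 2.72 and 2.45 above on db/+ 407 and 2.16, 1.11 and 1.29 above on db/db 409. Ccr2, the receptor gene of inflammatory monocytes, stood 1.38 and 1.4 above. Of the 34 other interferon-stimulated genes, Phf11d, Tap1, Ifi47 and Ddx60 met the same limit.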
